A study of Mus musculus with 6 samples.

Results

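The heavy chain isotype constant genes were followed in 6 single cell RNA-seq libraries of mouse splenic germinal center (GC) B-cells. The 8 members were *Ighm*, *Ighd*, *Ighg3*, *Ighg1*, *Ighg2b*, *Ighg2c*, *Ighe* and *Igha*, chosen by name from the features of the matrices. Each cell was assigned the member with the most unique molecular identifiers (UMIs, each standing for 1 captured transcript molecule), with at least 5 UMIs and no tie. A called cell whose leading member was neither *Ighm* nor *Ighd* is termed class-switched here. Per the labels, 3 libraries had the genotype Cgamma1-Cre WT Control (WT 1, 2 and 3) and 3 had the genotype Cgamma1-Cre Smc3 +/- (HET 1, 2 and 3). All 6 thus carried the Cre recombinase allele, which the methods of the study place in the *Ighg1* locus, so 1 member is itself the driver of the deletion. *Smc3* encodes part of the ring of cohesin, which holds DNA together in loops and between sister chromatids. The spleens came from animals immunized with sheep red blood cells 8 days earlier. Per the methods these were 6 mice without and 3 mice with the *Smc3* deletion, and 3 of the WT libraries are used here. The age and sex of the mice and the link of mice to libraries were not given in the sources used here, so p-values measure the spread between libraries. Additional wild-type libraries that the study integrated were not analysed here.

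Class switching replaces the constant region that a rearranged heavy chain variable region is joined to. Breaks are made in repetitive switch DNA upstream of the constant genes, and end joining of breaks in 2 switch regions removes the genes between them. A cell that had expressed IgM and IgD from the most upstream genes then expresses IgG, IgE or IgA with the same antigen specificity. Constant genes are also transcribed before they recombine, as germline (sterile) transcripts that start upstream of each switch region. The matrices hold 1 count per gene, taken at the 3′ end, so switched and germline transcripts of a member, or its secreted and membrane forms, could not be told apart here.

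The members lie on the minus strand of mouse chromosome 12 (GRCm38, GENCODE M21) in the order *Ighm*, *Ighd*, *Ighg3*, *Ighg1*, *Ighg2b*, *Ighg2c*, *Ighe* and *Igha*. *Ighm*, encoding the chain of IgM, spans chr12:113418558-113422730, and *Ighd*, for IgD, spans chr12:113406604-113416324. The IgG genes span chr12:113356224-113361232 (*Ighg3*), chr12:113325240-113330523 (*Ighg1*), chr12:113302965-113307933 (*Ighg2b*) and chr12:113285325-113288932 (*Ighg2c*). *Ighe*, for IgE, spans chr12:113269260-113273248 and *Igha*, for IgA, chr12:113254830-113260236. *Igha* begins 162 kb downstream of the start of *Ighm*. The 4 IgG genes are close copies, so the calls depend on how well their 3′ ends can be told apart. The last 60 coding bases before the stop codon of each secreted transcript are shown for them, with bases that differ from *Ighg1* at the same position in capitals.
Ighg1: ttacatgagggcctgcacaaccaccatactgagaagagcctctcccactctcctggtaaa
Ighg3: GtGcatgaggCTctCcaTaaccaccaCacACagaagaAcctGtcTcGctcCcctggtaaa
Ighg2b: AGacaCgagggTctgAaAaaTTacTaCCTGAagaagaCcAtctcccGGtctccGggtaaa
Ighg2c: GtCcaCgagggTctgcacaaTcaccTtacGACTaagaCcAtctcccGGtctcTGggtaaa

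Over these 60 bases *Ighg3* differed from *Ighg1* at 14, *Ighg2c* at 16 and *Ighg2b* at 19. In the last 400 bases of the secreted transcripts, no run of 50 bases was shared between any members, whereas over whole transcripts *Ighg2b* shared 109 of its 2628 such runs with another member, 70 of them with *Ighg2c*. The ends of the membrane transcripts were not compared on their own. The tail ends of the IgM and IgA chains are also printed, since both carry the tailpiece that binds the J chain. Capitals mark the bases of *Ighm* that differ from *Igha*, 19 of 60.
Igha: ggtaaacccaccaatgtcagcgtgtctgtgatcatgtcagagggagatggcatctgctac
Ighm: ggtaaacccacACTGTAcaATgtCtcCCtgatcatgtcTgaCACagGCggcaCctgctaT

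The libraries held 22939 barcodes and 156055938 UMIs, 5223325 to 35354257 per library, and 20809 cells were kept. In kept cells the 8 members took 4965239 UMIs, and 17471 cells were called. Cells were clustered without any immunoglobulin gene and named from markers, so the members did not define the states. Libraries shared 4 to 36 cell barcodes in pairs. HET 2 stood apart in the members themselves. Its kept cells held 4003921 *Igha* UMIs, against 16599 to 73337 in the other 5 libraries, and 1410 of the 1492 plasma cell-like (PC-like) cells were from it. Against the cell type on its label, the summed level of 6 B lineage markers was 1552 CPM in HET 2 (UMIs of a gene scaled to equal library totals) and 4621 to 5780 in the others. Within GC B-like cells the 9 GC markers summed to 602 CPM in HET 2, against 2061 to 2769 in the others, with 8 of the 9 above 10 CPM and none at 0. The main results that rest on HET 2 are therefore given with and without it. Transcripts of 4 Y-linked genes separated WT 1, WT 2 and HET 2 (54.0 to 189 CPM) from WT 3, HET 1 and HET 3 (0 to 0.0327), so sex and genotype were unbalanced.

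UMIs of the members were also found in cells that do not make antibody. In T cell-like and myeloid-like cells, *Ighm* had at least 1 UMI in 45.9% to 54.5% of cells across the 6 libraries, with a 95th percentile of 3 to 7 UMIs. That percentile was 5 or more in WT 1, WT 3 and HET 1, so the lowest *Ighm* calls there lay within it. *Igha* had at least 1 UMI in 3% to 21.4% of these cells in 5 libraries, with a 95th percentile of 0 to 1.85. In HET 2 all 721 of them had an *Igha* UMI, with a median of 9 and a 95th percentile of 21. *Igha* UMIs in B-lineage cells of HET 2 thus overlapped the level in cells outside the B lineage, while in the other libraries a call of 5 UMIs lay above it. *Ighd*, *Ighg2c* and *Ighe* were near 0 outside the B lineage in all 6 libraries, with a UMI in at most 2.91% of cells. A recount in which a member's UMIs in a cell were set to 0 unless they exceeded this 95th percentile is given beside the results as the background-removed value. It was chosen after the data had been seen.

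**Figure D1:**
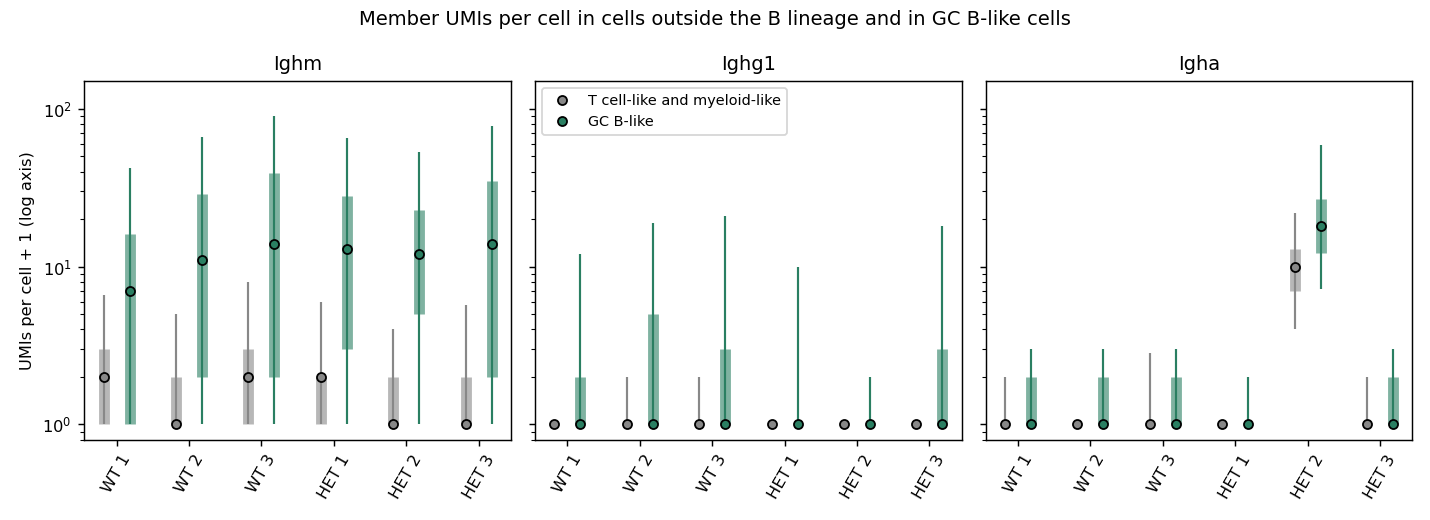
UMIs per cell plus 1 (log axis) of *Ighm*, *Ighg1* and *Igha* in each library, in T cell-like and myeloid-like cells (grey) and in GC B-like cells (green). Points are medians, thick bars span the middle quartiles and thin lines the 5th to 95th percentiles. The median of *Igha* in cells outside the B lineage is 9 UMIs in HET 2 and 0 in the other 5 libraries.

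*Ighm* was the leading member in most GC B-like cells outside HET 2. GC B-like cells comprise the centroblast-like (CB-like), S-phase, centrocyte-like (CC-like) and recycling-like clusters, and 509, 2897 and 2669 of them were called in WT 1, 2 and 3, and 1466, 355 and 2740 in HET 1, 2 and 3. The called share of cells ran from 77.1% in WT 1 to 97.0% in HET 2. *Ighm* led in 65.8%, 64.3% and 64.0% of calls in the WT libraries and in 74.4%, 34.6% and 68.2% in the HET libraries. HET 1 and HET 3 were above all 3 WT libraries and HET 2 below them. With background removed, the *Ighm* share of HET 2 was 64.4%, between the WT values of 62.8% to 64.6%. *Ighg1* led in 11.2%, 20.3% and 16.2% of WT calls and 7.98%, 0% and 16.8% of HET calls. *Ighg3*, the first IgG gene of the locus, led in 7.66%, 8.11% and 10.0% of WT calls and 12.0%, 0% and 10.2% of HET calls. Outside HET 2 *Ighg1* had the wider range of these genes, and neither led in any GC B-like cell of HET 2, where with background removed they led in 1 (*Ighg1*) and 2 (*Ighg3*) cells. *Ighg2b* led in 14.9%, 6.94% and 9.18% of WT calls and 5.59%, 0% and 4.38% of HET calls, so the 3 HET libraries lay below the 3 WT libraries. With background removed *Ighg2b* led in 4.73% in HET 2, between HET 3 at 4.38% and HET 1 at 5.71%. *Igha* led in 0% to 0.393% of calls in 5 libraries and in 65.4% in HET 2, or 29.7% there with background removed. *Ighg2c* led in 13 GC B-like cells and *Ighd* in 4 over all libraries, and *Ighe* in none.

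As levels, the sum of *Ighm* in GC B-like cells was 2575 ± 344 CPM (SD, n = 5 libraries without HET 2). *Ighg1* followed at 363 ± 85.9, *Ighg3* at 231 ± 56.7, *Ighg2b* at 222 ± 95.1 and *Igha* at 63.7 ± 35.0. The ranges over libraries of neighbours from *Ighg1* to *Igha* overlapped, and that of *Ighm* lay above them. *Ighd* at 11.1 ± 1.95, *Ighg2c* at 5.32 ± 1.95 and *Ighe* at 1.01 ± 0.151 came last, with ranges that overlapped neither one another nor that of *Igha*. A UMI was counted as 1 molecule at the 3′ end, with no scaling to transcript length. In the annotation used here the membrane transcripts of *Ighg2c* and *Ighe* have no 3′ UTR, while those of the other members have 268 to 1371 bases. The annotation used for counting may differ, and the part of this in their low levels was not tested. In such sums, fewer cells of an isotype and less RNA per cell cannot be told apart.

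**Figure D2:**
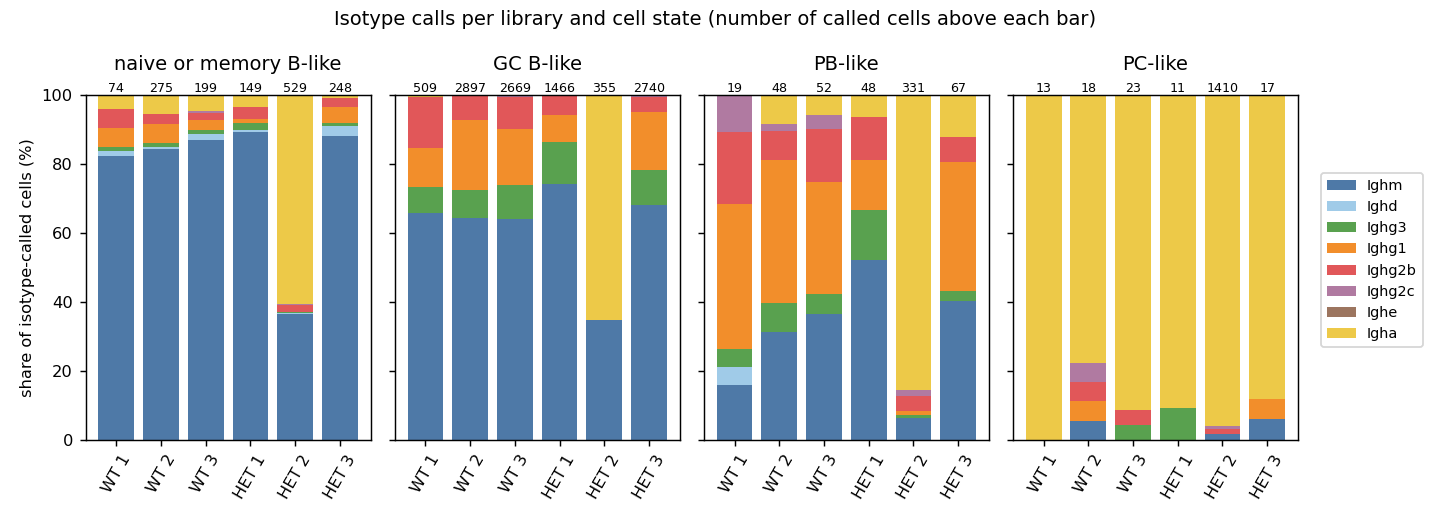
Share of called cells (%) by leading member in each library, in naive or memory B-like, GC B-like, plasmablast-like (PB-like) and PC-like cells, with the number of called cells above each bar. Outside HET 2 *Ighm* leads the naive or memory and GC B-like bars, PB-like bars are mixed, and PC-like bars are 77.8% to 100% *Igha*. HET 2 holds more *Igha* than the other libraries in the first 3 panels.

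Whether loss of 1 *Smc3* copy in cells that transcribe *Ighg1* went with a different share of switched GC cells was compared over libraries. The class-switched share of GC B-like calls was 34.2% (exact 95% binomial interval 30.1 to 38.5), 35.6% (33.8 to 37.4) and 35.9% (34.1 to 37.7) in WT 1, 2 and 3. It was 25.6% (23.4 to 27.9), 65.4% (60.1 to 70.3) and 31.8% (30.01 to 33.5) in HET 1, 2 and 3. These intervals cover counting error only. The 3 WT intervals overlapped one another, and the HET libraries fell on both sides of WT. The means were 35.2 ± 0.911% in WT and 40.9 ± 21.4% in HET (SD, n = 3 each), a difference of 5.67 points with an exact two-sided permutation p of 1. Without HET 2 the difference was -6.56 points, with HET 1 and HET 3 below all WT libraries (exact permutation p = 0.2, the smallest that 3 against 2 libraries can give).

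With background removed, the switched share was 35.4%, 35.6% and 37.2% in WT and 26.2%, 35.3% and 31.8% in HET. HET 2 then lay just below the lowest WT library, and the difference was -4.97 points (exact permutation p = 0.1, the smallest that 3 against 3 libraries can give). The switched calls of HET 2 were still of another kind, since 94 of the 112 were *Igha* (29.7% of calls, against at most 0.407% in the other libraries). A second member was held by 89.9% of its calls, but this was counted on all UMIs with the background included. Among the libraries with at most 1 Y-linked UMI the share was 35.9% in WT 3 against 25.6% and 31.8% in HET 1 and HET 3, and the other 3 held only HET 2 for that genotype. A member's own share was compared in 21 tests over 3 classes, all with an adjusted p of 1. In GC B-like cells the smallest p was that of *Ighg2b*, at 10.3 ± 4.12% in WT and 3.32 ± 2.94% in HET (exact permutation p = 0.1). Without HET 2 the HET mean was 4.99% and the difference -5.36 points (exact permutation p = 0.2, the smallest possible).

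Sums over GC B-like cells were also fitted across all 10881 genes that passed the low-count filter, with edgeR's quasi-likelihood test and Benjamini-Hochberg adjustment. All 8 members were tested and 0 of them passed, against a background of 0% of all genes called. At an unadjusted p under 0.05 there were 178 genes and 1 member (*Igha*), and DESeq2 called 2 genes and 0 members. The log2 difference of *Ighm* between HET and WT was 0.24 (SE 0.19) and that of *Ighg1* was -0.83 (SE 0.62), or -0.37 without HET 2. *Igha* had a log2 difference of 4.94 (SE 1.97) with an adjusted p of 1 in edgeR, and of -0.98 without HET 2. *Ighg2b* and *Ighg3* were at -0.25 (SE 0.42) and -0.05 (SE 0.45), and at -0.89 and 0.35 without HET 2. Without HET 2, 0 members passed in edgeR (0% of 11399 genes), with 4 members and 380 genes at an unadjusted p under 0.05. The 4 members were *Ighd* at -0.44, *Ighg2b*, *Ighg2c* at -0.92 and *Igha*, all lower in HET. In simulated libraries of the same size this fit recovered 56 of 200 genes changed by a log2 of 1 and 174 of 200 changed by a log2 of 2. In all kept cells 8 members were tested among 11842 genes, with 0 called by edgeR (0% of genes), 0 members and 174 genes at an unadjusted p under 0.05, and 0 members by DESeq2. DESeq2 gave no p for *Igha* in any of the 4 fits, nor for *Ighg2b*, *Ighg2c* and *Ighe* in all kept cells, so its counts leave these out.

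The states of the GC differed in how often a switched member led, and they differed in depth as well. CB-like cells, the dividing cells of the dark zone, were switched in 33.2%, 36.2% and 33.5% of WT calls and 25.3%, 54.2% and 30.7% of HET calls. S-phase cells were close to them, at 33.5%, 35.3% and 36.8% in WT and 24.0%, 66.0% and 30.3% in HET. Recycling-like cells, with the *Myc*-linked growth genes of selected cells, were switched in 50%, 43.6% and 46.1% of WT calls and 34.1%, 90.9% and 41.8% of HET calls. With background removed, HET 2 moved to 26.2% in CB-like, 39.6% in S-phase, 76.5% in recycling-like and 25.8% in CC-like cells. The background cells of HET 2 were shallower, with medians of 1795.5 (T cell-like) and 2773 UMIs (myeloid-like) against 4754 in its CB-like and 13492 in its recycling-like cells, and the threshold was not scaled to depth. Recycling-like cells were the deepest GC state, with a median of 11732 to 20448.5 UMIs per cell against 3853 to 6687 in CB-like cells. Cells led by an IgG gene held fewer UMIs of it than cells led by *Ighm* held of *Ighm*. The median UMIs of the leading member over the libraries were 15 to 33 for *Ighm* and 8 to 18 for *Ighg3*, *Ighg1* and *Ighg2b*.

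CC-like cells, with the CD83 and NF-kB target genes of the light zone, were switched in 23.9%, 25.9% and 29.7% of WT calls and 21.2%, 69.4% and 29.4% of HET calls. The CC-like share was lower than the CB-like share in 5 of 6 libraries, and the mean difference was -2.29 points (exact two-sided sign-flip p = 0.59375, 1 adjusted over 8 tests), with HET 2 the other way. Without HET 2 it was lower in 5 of 5 libraries, by a mean of -5.78 points (exact sign-flip p = 0.0625, the smallest that 5 libraries can give). With background removed it was lower in 6 of 6 libraries (-4.84 points, exact sign-flip p = 0.03125), and with libraries left unintegrated before clustering the mean was 2.07 points (exact sign-flip p = 0.28125), so the direction changed with this setting.

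After every cell was thinned to 2000 UMIs, with shallower cells left out, GC B-like cells were switched in 22.6%, 19.4% and 19.3% of WT calls and 15.2%, 66.6% and 15.7% of HET calls. Recycling-like cells then had 27.3%, 22.2% and 22.9% in WT and 22.5% and 14% in HET 1 and HET 3, against 23.9%, 20.3% and 19.1% in WT and 15.0% and 16.8% in HET 1 and HET 3 for CB-like cells. Of these 5 libraries, recycling-like cells were above CB-like cells in 5 with all UMIs and in 4 at equal depth, HET 3 being below. CC-like cells were at 9.76%, 11.6% and 12.3% in WT and 12.4% and 14.8% in HET 1 and HET 3, and were below CB-like cells of the same library in 5 of 5. An unnamed cluster of 3435 cells led by haemoglobin genes, which also held GC genes, was left out of these states. Its switched share at 2000 UMIs was 19.4%, 28.1% and 26.4% in WT and 20.4% and 21.9% in HET 1 and HET 3, above CB-like cells in 4 of 5 libraries, so at this depth the lower share of CC-like cells does not extend to it. With all UMIs the order turned. The share of the cluster was then 25.4%, 33.6% and 36% in WT and 22.9% and 26.9% in HET 1 and HET 3, below CB-like cells of the same library in all of these but WT 3. With all UMIs and the cluster counted as CC-like, the mean difference from CB-like cells was -1.90 points over the 6 libraries (exact sign-flip p = 0.4375).

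The spread of isotypes over the GC states was also read the other way. In 5 libraries with both kinds of call, CC-like cells made up 10.5%, 6.47% and 8.08% of *Ighg1*-called GC B-like cells in WT 1, 2 and 3, and 15.2%, 12.6% and 10.5% of *Ighm*-called cells. In HET 1 and HET 3 they made up 7.69% and 7.81% of *Ighg1*-called and 9.53% and 11.7% of *Ighm*-called cells. The CC-like share was lower among *Ighg1*-called cells in 5 of 5 libraries, with a mean difference of -3.79 points (exact two-sided sign-flip p = 0.0625, the smallest possible, and 0.167 adjusted over 8 tests). HET 2 had no *Ighg1*-called GC B-like cell.

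**Figure D3:**
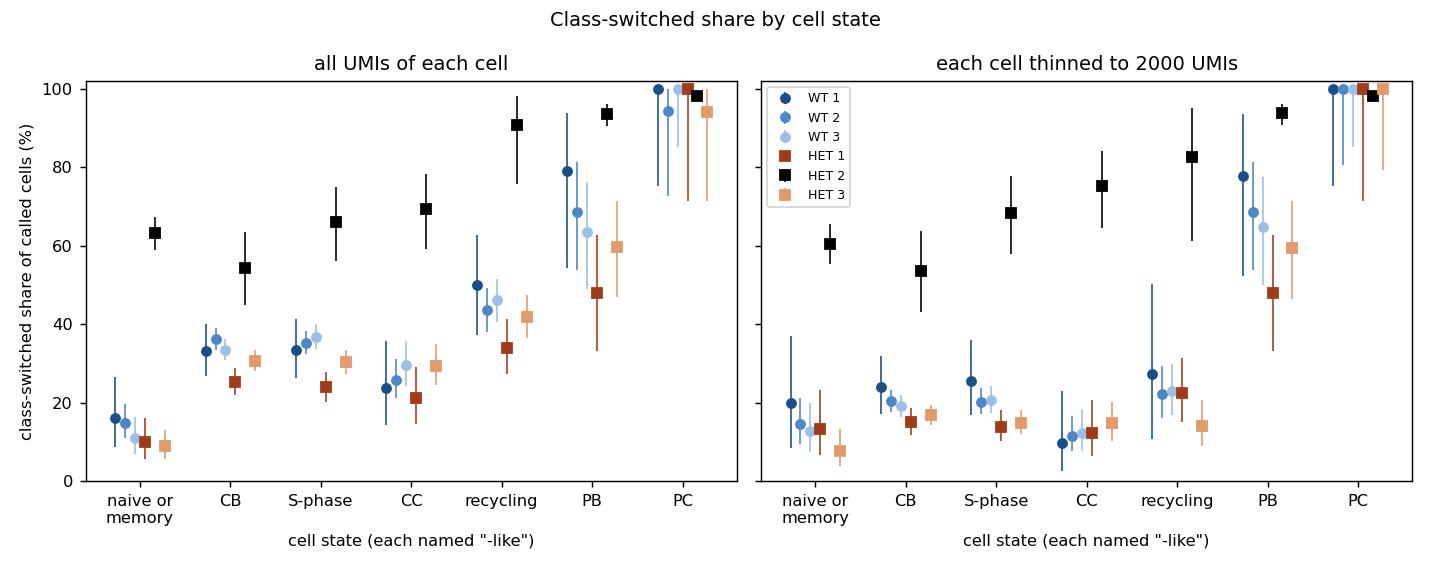
Class-switched share of called cells (%) by cell state, with all UMIs of each cell (left) and with each cell thinned to 2000 UMIs (right). Points are libraries (circles WT, squares HET, HET 2 in black) and bars are exact 95% binomial intervals. Outside HET 2, recycling-like cells reach 34.1% to 50% on the left and 14% to 27.3% on the right, while PB-like cells span 47.9% to 78.9% on the left and 47.9% to 77.8% on the right.

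Naive or memory B-like cells were mainly *Ighm*-led outside HET 2. Their class-switched share was 16.2%, 14.9% and 11.1% in WT and 10.1%, 63.3% and 8.87% in HET. In HET 2, 321 of 529 calls were *Igha*, and the background-removed share there was 20%. Within libraries the share was lower in naive or memory B-like than in GC B-like cells in 6 of 6, with a mean difference of -17.3 points (range -24.8 to -2.03, exact two-sided sign-flip p = 0.03125, the smallest possible, and 0.125 adjusted over 8 tests). At 2000 UMIs per cell it was lower in 6 of 6 as well, with a mean difference of -4.97 points. Where the leading member had to hold at least 80% of a cell's member UMIs, the mean was -10.6 points (exact sign-flip p = 0.0625, unadjusted). With the haemoglobin-led cluster counted as GC B-like it was -16.4 points (exact sign-flip p = 0.0625, unadjusted), with 1 library then at 0.42 points. The difference between genotypes was 13.4 points (exact permutation p = 1), and -4.59 points without HET 2, with HET 1 and HET 3 below all WT libraries (exact permutation p = 0.2, the smallest possible). At 2000 UMIs per cell HET 1 (13.3%) was above WT 3 (12.8%). In the edgeR fit 0 of 7 members tested passed in this class, against a background of 0% of 7019 genes. At an unadjusted p under 0.05 there were 138 genes and 2 members, *Ighg1* at a log2 difference of -1.31 (SE 0.55) and *Ighg2b* at 1.30 (SE 0.51), and DESeq2 called 0 members. Without HET 2 these counts were 191 genes of 7155 and 4 members, *Ighg1* at -0.83, *Ighg2b* at 1.18, *Ighg3* at 1.17 and *Igha* at -1.62, and 0 members passed in edgeR (0% of genes). In HET 1, 1 cell held 471 of the 581 *Ighg2b* UMIs of this class (81.1%), against 8.64% to 31.2% in the top cell of the other libraries. With no low-count filter 4 members passed, against a background of 0.264% of 13641 genes called, 34 of the 36 as higher. *Ighg1* was lower and *Ighg3*, *Ighg2b* and *Igha* were higher in HET, where *Igha* was at a log2 difference of 2.22, against -1.62 with the filter and without HET 2.

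*Ighd*, which resting B-cells co-express with *Ighm* from 1 long transcript, set this class apart. At least 1 *Ighd* UMI was found in 53.7%, 51.3% and 64.5% of naive or memory B-like cells in WT and 45.5%, 29.0% and 52.4% in HET. In GC B-like cells the share was 5.09% to 7.64% in 5 libraries and 20.5% in HET 2, and in T cell-like and myeloid-like cells 0.877% to 1.19%. GC B-like cells were deeper than naive or memory B-like cells, with medians of 4356.5 to 7202.5 against 1888 to 2831 UMIs, and T cell-like cells had medians of 1207 to 1978. At 2000 UMIs per cell 20.8% to 48.2% of naive or memory B-like cells had an *Ighd* UMI, against 2.14% to 9.33% of GC B-like cells. In level, *Ighd* stood at 373, 375 and 461 CPM in WT and 312, 199 and 396 in HET in naive or memory B-like cells. *Ighm* was about an order of magnitude higher there, at 3462 to 4572 outside HET 2. *Ighd* therefore led in few cells, with 15 calls in the class outside HET 2, and 62 of 818 *Ighm*-called cells (7.58%) also held at least 5 *Ighd* UMIs.

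Plasma-lineage cells held the highest switched shares, and their plasmablast and plasma cell states differed in isotype. Switched members led in 87.5%, 75.8% and 74.7% of plasma-lineage calls in WT (n = 32, 66 and 75 called cells) and 57.6%, 97.4% and 66.7% in HET (n = 59, 1741 and 84). The share was higher than in GC B-like cells of the same library in 6 of 6, by 38.5 points on average (range 32.0 to 53.3, exact two-sided sign-flip p = 0.03125, the smallest possible, and 0.125 adjusted over 8 tests). At 2000 UMIs per cell it was also higher in 6 of 6, by 50.6 points on average. Thinning lowered the called share of GC B-like cells to 47.2% to 58.6% outside HET 2, while 93.9% to 100% of plasma-lineage cells were still called, so the thinned shares cover different parts of the 2 classes. The genotypes differed by -5.41 points (exact permutation p = 0.8) and by -17.2 points without HET 2 (exact permutation p = 0.2, the smallest possible), where both HET libraries lay below the 3 WT libraries. The class was made up differently, since PC-like cells, switched in 94.1% to 100% of calls, were 13 of 32, 18 of 66 and 23 of 75 calls in WT and 11 of 59, 1410 of 1741 and 17 of 84 in HET. In PB-like cells alone the switched share was 78.9%, 68.8% and 63.5% in WT and 47.9%, 93.7% and 59.7% in HET. Without HET 2, HET 1 and HET 3 were thus below all WT libraries in GC B-like cells, in naive or memory B-like cells and in plasma-lineage cells, and none of these tests could reach 0.05. Among libraries with at most 1 Y-linked UMI the order was the same in the 3 classes, with WT 3 at 35.9%, 11.1% and 74.7% and the mean of HET 1 and HET 3 at 28.7%, 9.47% and 62.1%.

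PB-like cells, the plasma-lineage cluster with the higher mean level of the S-phase markers, spread over 7 members. Outside HET 2, *Ighm* led in 35.2 ± 13.3% and *Ighg1* in 33.7 ± 11.3% of 234 calls (SD, n = 5 libraries), followed by *Ighg2b* at 12.9 ± 5.55%, *Ighg3* at 7.39 ± 4.45%, *Igha* at 6.46 ± 4.35%, *Ighg2c* at 3.29 ± 4.35% and *Ighd* in 1 cell. *Ighm* led in 3 of 19, 15 of 48 and 19 of 52 cells in WT and 25 of 48, 21 of 331 and 27 of 67 in HET. *Ighg1* led in 8, 20 and 17 cells in WT and in 7, 4 and 25 in HET. PC-like cells, the other plasma-lineage cluster, were nearly all IgA. *Igha* led in 13 of 13, 14 of 18 and 21 of 23 called PC-like cells in WT and in 10 of 11, 1354 of 1410 and 15 of 17 in HET. The share of *Igha* was higher in PC-like than in PB-like cells in each of the 6 libraries, although 5 of them held only 11 to 23 PC-like cells.

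**Figure D4:**
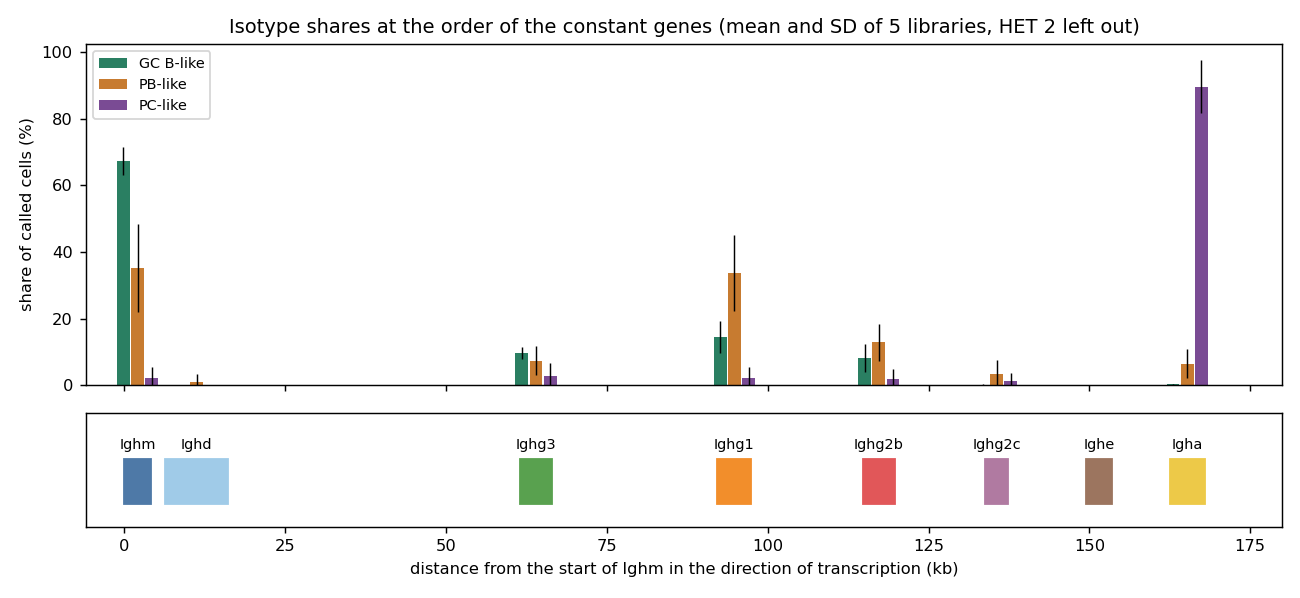
Share of called cells (%) led by each member in GC B-like, PB-like and PC-like cells, as mean and SD of the 5 libraries without HET 2, placed at the distance of each gene from the start of *Ighm* (kb, direction of transcription). GC B-like cells peak at *Ighm* (67.4%), PB-like cells at *Ighm* and *Ighg1*, and PC-like cells at *Igha* (89.6%), the last gene.

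The median UMIs of the leading member per cell differed between these states. In PB-like cells the median UMIs of the leading member were 441 to 991 for *Ighm* and 403.5 to 630 for *Ighg1*, against 15 to 33 and 10 to 14 in GC B-like cells. In *Igha*-led PC-like cells the median was 1981, 2231 and 3450 in WT and 1718, 2737 and 2067 in HET, which was 15.7% to 20.4% of all UMIs of such a cell. HET 2 lay inside the range of the other libraries by this measure. Single cells overlapped, since *Igha*-led cells of HET 2 held 40 to 4960 *Igha* UMIs in PB-like and 127 to 6392 in PC-like cells. As a sum, *Igha* reached 130376 to 202545 CPM in PC-like cells of the 6 libraries.

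**Figure D5:**
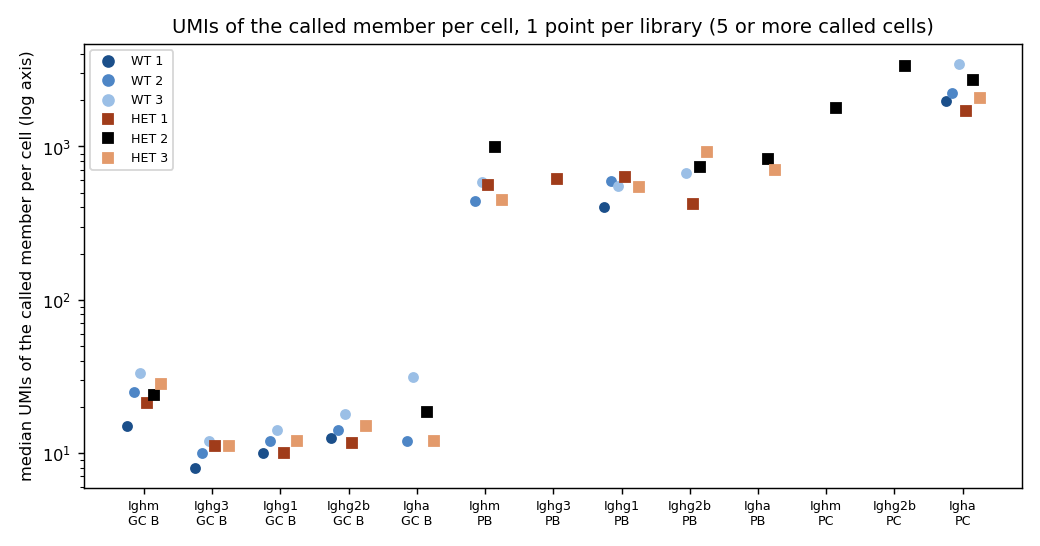
Median UMIs per cell (log axis) of the leading member in cells called for it, for GC B-like, PB-like and PC-like cells, 1 point per library where at least 5 cells were called. *Ighm*, *Ighg3*, *Ighg1*, *Ighg2b* and *Igha* are shown. GC B-like medians lie between 8 and 33, PB-like medians between 403.5 (*Ighg1* in WT 1) and 991, and PC-like *Igha* medians between 1718 and 3450.

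In the fit over plasma-lineage sums, 0 of 6 members tested passed, against a background of 0% of 5907 genes, with 0 members and 249 genes at an unadjusted p under 0.05. DESeq2 called 0 members, with 1 (*Ighm*) and 174 genes at an unadjusted p under 0.05. With no low-count filter 0 of 8 members passed in edgeR, with 2 members (*Ighd* and *Ighe*) and 946 genes at an unadjusted p under 0.05, against 0.0342% of 14632 genes called. *Ighm* had a log2 difference of 0.76 (SE 0.40) between HET and WT, and *Igha* of 2.06 (SE 1.32), or -1.06 without HET 2. Without HET 2, 1 member passed, against a background of 0.0157% of 6351 genes called, which was this gene alone. It was *Ighg2c*, with a log2 difference of -8.09 (SE 0.77, edgeR adjusted p = 0.000504). Its plasma-lineage UMIs were 456, 2793 and 947 in WT 1, 2 and 3 and 1, 27038 and 10 in HET 1, 2 and 3. By total UMIs HET 2, with 1741 plasma-lineage cells, was the highest and the other HET libraries the lowest, and with it included the log2 difference was -0.17 (SE 1.79). In the WT libraries 1 cell alone held 76.8%, 61.5% and 85.5% of these UMIs. *Ighg2c* led in 2, 2 and 2 plasma-lineage cells in WT and in 0, 19 and 0 in HET, so the WT side of the call without HET 2 had 6 such cells. As a share of calls this was 6.25%, 3.03% and 2.67% in WT and 0%, 1.09% and 0% in HET, with all HET libraries below all WT libraries (3.98 ± 1.97% against 0.364 ± 0.630%, exact permutation p = 0.1, the smallest possible, and 1 adjusted over 21 tests).

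*Ighe* was the rarest member. It had 4, 31 and 29 UMIs in all kept cells of WT 1, 2 and 3 and 14, 175 and 22 in HET 1, 2 and 3, and led in 0 of 17471 called cells. In HET 2, 1 PB-like cell held 132 of the 175 UMIs, with another member leading. *Ighd* led in 1 PB-like cell, in WT 1, where the highest *Ighd* count of a PB-like cell was 117 UMIs. These single cells are values without a test.

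Some cells held UMIs of a second member. Outside HET 2, 150 of 997 *Ighg3*-called GC B-like cells (15.0%), 217 of 1655 *Ighg1*-called (13.1%) and 110 of 724 *Ighg2b*-called (15.2%) also had at least 5 *Ighm* UMIs. Among 6869 *Ighm*-called cells, *Ighg1* reached 5 UMIs in 351 (5.11%), *Ighg3* in 201 (2.93%), *Ighg2b* in 105 (1.53%) and *Igha* in 13 (0.189%). This order followed the calls themselves. Of 91 *Igha*-called plasma-lineage cells outside HET 2, 25 (27.5%) also held at least 5 *Ighg2b* UMIs. In HET 2, 78.3% of 355 called GC B-like cells had a second member with 5 or more UMIs, against 10.4% to 14.9% in the other libraries, and the leading member held a median of 61.0% of member UMIs, against 88.9% to 96.3%. The parts of free RNA, germline transcripts and unseen doublets in such cells were not tested.

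The targeted gene gave little contrast between genotypes in these cells. *Smc3* stood at 153, 176 and 165 normalised CPM in GC B-like cells of WT and at 147, 133 and 183 of HET, a log2 difference of -0.09 (SE 0.15, edgeR adjusted p = 1). The methods of the study place the deletion in an early exon, so the counted 3′ end lies outside it and does not check the deletion. In *Ighg1*-called cells, which transcribe the locus that carries Cre, *Smc3* was at 206, 183 and 155 CPM in WT and at 164 and 191 in HET 1 and HET 3. In *Ighm*-called cells it was at 158, 171 and 163 in WT and at 160, 116 and 183 in HET. The difference of *Ighg1*-called minus *Ighm*-called cells on the log2 scale (pseudocount of 1 CPM) was 0.13 ± 0.23 in WT and 0.05 ± 0.02 in HET, which differed by -0.09 (3 against 2 libraries, exact two-sided permutation p = 0.8).

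Genes that act on class switching were read in the same GC B-like fit. Of 40 genes listed for the recombination reaction, 39 were matched to features and tested, and 0 passed in edgeR or DESeq2, with 0 at an unadjusted p under 0.05. Their median log2 difference was -0.08 against -0.0036 for all genes tested, 34 being below 0 and 5 above. Without HET 2 the median was -0.04, with 24 below 0. The lowest was *Hmces*, which guards abasic sites, at -0.40, and the highest *Shld1*, of the shieldin complex that steers breaks to end joining, at 0.22. *Hmces* stood at 851, 768 and 846 normalised CPM in WT and 930, 136 and 793 in HET, and its log2 difference was 0.07 without HET 2. Of 17 genes listed for cytokine and co-stimulatory signals that direct isotype choice, 0 passed and 0 had an unadjusted p under 0.05. They ran from *Bach2*, a repressor of plasma cell differentiation, at -0.55 to *Irf4*, a factor of switching and plasma cell fate, at 1.14, the latter at 4.56, 4.56 and 5.18 normalised CPM in WT and 4.55, 29.7 and 4.16 in HET. Of 8 tested genes for processing and partners of the heavy chain, 0 passed, from *Ell2*, an elongation factor that favours the secreted form, at -0.27 to *Jchain*, which links IgM and IgA multimers, at 0.65. Without HET 2 *Irf4* was at -0.15, *Bach2* at -0.24, *Ell2* at -0.22, *Jchain* at 0.19 and *Shld1* at 0.11. HET 2 held the highest *Irf4* and *Jchain* of the 6 libraries, and most of the plasma-lineage cells.

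Across 47 sums per library and cell state (all 6 libraries), the gene outside the immunoglobulin loci most like a member in log2 level was not the same for all members. For *Ighd* it was *Cd38* (Pearson r = 0.79), followed by *Dnajc7* and *Serpinb1a*. For the other members it was *Mzb1* (0.83 with *Ighm* and 0.85 with *Ighg3*), *Kdelr2* (0.85 with *Ighg1*), *Ell2* (0.89 with *Ighg2b*), *Sec11c* (0.60 with *Ighg2c*) and *Ssr4* (0.76 with *Igha*). *Mzb1*, *Kdelr2*, *Sec11c* and *Ssr4* encode proteins of the endoplasmic reticulum and the early secretory route. *Ighe* reached 0.40 at most, with *Fbxw7*. Over the 38 sums without HET 2, *Kdelr2* (0.92) and *Ell2* (0.90) again came first for *Ighg1* and *Ighg2b*. The first gene was then *Erp29* for *Ighm* (0.90), *Serpinb1a* for *Ighd* (0.77, with *Cd38* at 0.76), *Jchain* for *Ighg3* (0.89), *Ddt* for *Ighg2c* (0.70), *Dcaf12* for *Ighe* (0.66) and *Fam214a* for *Igha* (0.76). The sums share libraries and depth, and the values are a description with no test.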

How the data were processed

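Droplet libraries of 3 WT and 3 HET samples were deposited by the authors as raw UMI counts per gene and barcode, written by Cell Ranger 3.0.2 per the file headers. Per the submitters' processing notes, mm10, R 4.0.2 and Seurat 4.0.0 were also used. Libraries held 5223325 to 35354257 UMIs. From these counts, cells with at least 500 genes and at most 10% mitochondrial UMIs were kept, and 759 doublets were removed by simulated-doublet scores at 0.8% per 1000 cells. Cells were integrated by library and clustered without immunoglobulin genes in Seurat 5.3.0 (2000 variable features, 30 components, 20 neighbours, resolution 0.5). Clusters were named from marker lists by a rule completed after the clusters had been seen, which asked for the most markers of any list among a cluster's top 10 genes with no tie, at least 3 detected markers, and levels of *Cd79a* and of the GC markers on the side its class requires. Other clusters stayed unnamed.

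Isotypes were called from 5 UMIs. Shares were compared over libraries with exact two-sided tests (scipy 1.17.1), using permutation between genotypes and sign flips within libraries. UMI sums per library and class with at least 20 cells were tested with edgeR 4.0.16 (R 4.3.3) over all genes, adjusted by Benjamini-Hochberg at 0.05. DESeq2 1.42.0 was an alternative, and the fit was tested on simulated data. The named genes were the 8 members, the targeted gene, list genes past the threshold or otherwise the lowest and highest of each list in GC B-like cells, and the 3 genes most like each member (Pearson r of log2(CPM + 1) over sums), among genes with a mean of at least 10 CPM, a filter added after the data had been seen. The rule named 1 further gene, which is not reported here. Members and lists were chosen with earlier results of these data known. Background removal, sex as a covariate and counting the haemoglobin-led cluster as GC B-like were likewise chosen later. Libraries share replicate numbers in the labels, with no stated link. Same-numbered libraries deviated together, with every correlation over 0.1, only in GC B-like (0.308, 0.115 and 0.234) and naive or memory B-like sums (0.248, 0.169 and 0.139). Fits that leave out a library assume that both groups vary alike.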

Additional observations from a re-analysis of the deposited data

Results flagged for a closer look

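*Igha* UMIs appeared in cells outside the B lineage, which were not compared between genotypes as classes of their own, above the level of the WT libraries. In HET 2 the calling rule gave *Igha* in 122 of all 150 T cell-like cells (81.3%, exact 95% binomial interval 74.2 to 87.2). In the other libraries it did so in 0 of 75, 0 of 82 and 1 of 57 T cell-like cells in WT and 0 of 87 and 0 of 90 in HET 1 and HET 3. In myeloid-like cells of HET 2 it gave *Igha* in 517 of all 571 cells (90.5%, 87.8 to 92.8), against 0 in the other 5 libraries, which held 12 to 27 myeloid-like cells each. Any isotype was called in 123 and 517 of these cells in HET 2, and in 1 to 7 T cell-like and 0 to 3 myeloid-like cells in each of the other libraries. T cell-like cells of HET 2 had a median of 1795.5 UMIs, within the 1207 to 1978 of the other libraries. HET 2 also held most plasma-lineage cells, and the part of their RNA in these UMIs was not tested.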

How the results depend on the processing

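Of the alternative values for comparisons, 176 kept their direction and side of the threshold, 10 reversed, 16 became weaker, 2 became stronger and 2 moved, and for single genes 110 kept them, 9 reversed and 1 became stronger. Comparisons of shares and of *Smc3* between genotypes had a smallest possible p of 0.1 or more, so they could not change side in any setting. Counts of members or list genes past the threshold have no direction and were kept where they stayed at 0. The tally is therefore no measure of robustness for these. The cause of a change was not tested unless fewer libraries alone raise the smallest possible p. Leaving out 1 library at a time moved the HET minus WT switched share between -6.56 and 13.3 points in GC B-like, -4.59 and 22.6 in naive or memory B-like and -17.2 and 2.73 in plasma-lineage cells, the lower ends without HET 2 and the last upper end without HET 1. At 80% purity the difference was 18.3 points in GC B-like and 23.8 in naive or memory B-like cells, and it was 12.0 and 11.3 at 2000 UMIs and 9.79 and 13.8 with a looser cell filter. Within libraries leaving out 1 library gave 35.6 to 39.8 points for plasma-lineage minus GC B-like and -20.4 to -15.8 for naive or memory minus GC B-like, each with an exact sign-flip p of 0.0625, the smallest that 5 libraries allow. With background removed the genotype difference was -4.97 points in GC B-like and -2.40 in naive or memory B-like cells, and without HET 2 as well it was -7.09 and -5.71, while the within-library differences were 39.2 for plasma-lineage and -19.7 for naive or memory cells. The naive or memory minus GC difference was -10.6 at 80% purity and -16.4 with the haemoglobin-led cluster counted, each with an exact sign-flip p of 0.0625. The CC-like minus CB-like difference was -6.21 with a looser cell filter, -4.84 with background removed and 2.07 without integration. The *Smc3* contrast between isotypes was 0.0095 at 80% purity and -0.19 to 0.038 with a library left out. Members past the threshold numbered 4 in naive or memory B-like cells with no low-count filter and 1 in plasma-lineage cells without HET 2 (0 to 1 with a library left out). With a library left out, log2 differences in GC B-like cells ran from -1.52 to -0.37 for *Ighg1* (the latter without HET 2), -0.89 to 0.054 for *Ighg2b*, -0.52 to 0.35 for *Ighg3* (0.082 with a looser cell filter) and -0.98 to 5.52 for *Igha*, and in plasma-lineage cells from -8.09 to 0.51 for *Ighg2c* and -1.06 to 2.59 for *Igha*. With sex as a covariate *Ighg1* was at -1.65 and *Ighg3* at -0.62 in GC B-like cells. With the replicate block the share differences were 5.67, 13.4 and -5.41 points, 0 members passed in each class, and log2 differences were -1.13 for *Ighg1* and 0.46 for *Igha* in GC B-like cells and -4.84 for *Ighg2c* and 0.13 for *Igha* in plasma-lineage cells. The block changed no call. WT 1, the shallowest library, and the 11 to 23 PC-like calls of 5 libraries limit what small shares can show.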
